A study of Equus caballus with 4 samples.

Results

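The sarcomeric myosin heavy and light chains were examined in differentiating equine satellite cells (ESC), the muscle stem cells that fuse into myotubes. The set was made of 10 genes, MYH1, MYH2, MYH3, MYH7, MYH8, MYL1, MYL2, MYL3, MYL4 and MYLPF, and its members were all gene probes that carried exactly one of these names on the array. This rule found 19 of the 43603 gene probes, for 9 of the 10 genes, because no probe carried the name MYLPF. In treated cells, gamma-oryzanol (GO, a rice bran mixture of plant sterol and triterpene alcohol ferulates) was given at 0.125 µM for 24 h after the 2nd day of differentiation, and H2O2 at 3 mM was present for the last 1 h. Control cells were at the same 3rd day of differentiation without GO. Per the study's methods their medium held the DMSO vehicle, and the study describes them as exposed to H2O2, which the labels do not state. Both groups were satellite cells from m. semitendinosus of young stallions, and the study chose 1 primary cell line for its experiments, so that the 4 biological replicates of the labels may share a donor and p-values then measure only the spread between these cultures. On each of the 4 arrays, all of 1 slide, red (Cy5) marked the treated and green (Cy3) the control sample. Dyes were not swapped on any array, and dye and treatment cannot be told apart in any value below.

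Myosin is the motor of the thick filament. A pair of heavy chains carries the ATPase heads and the coiled-coil tail, and each head binds an essential and a regulatory light chain. Skeletal muscle replaces its isoforms during development: MYH3 encodes the embryonic and MYH8 the neonatal heavy chain, MYH7 the slow (and cardiac beta) heavy chain, MYH2 the fast type IIa and MYH1 the fast type IIx chain. Among the light chains, MYL4 encodes the embryonic and atrial essential chain, MYL1 the fast essential chain, MYL3 the slow and ventricular essential chain, MYL2 the slow and ventricular regulatory chain, and MYLPF the fast regulatory chain.

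The heavy chain genes lie side by side on horse chromosome 11, except for MYH7. Coordinates are those of the array files, on the EquCab1 build, and the exon structure was not used here. The MYH8 probe (A_69_P035986) lies at chr11:51670611-51670670, the MYH1 probes between 51780387 and 51782362, the MYH2 probes between 51807900 and 51809900, and the MYH3 probe (A_69_P035991) at chr11:51904825-51904884, all listed from the higher to the lower coordinate. The 3 MYH7 probes are assigned to unplaced sequence around chrUn:181223623-181223681 and are shifted by 1 base from one to the next, so that they share a target and are not separate measurements. The MYL4 probe lies at chr11:16047778-16048383, the MYL1 probe at chr6:1026937-1029285, the MYL2 probe at chr8:20923471-20923530 and the MYL3 probe at chr16:39990724-39993217. Where the listed interval is longer than the 60 bases of the probe, the probe is split over it.

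Several isoforms are close in sequence, which bears on what their probes can tell apart. The MYL1 and MYL4 probes cover matching ends of the coding sequence and share 50 of 60 bases. They are printed here 5′ to 3′ with shared bases in capitals.

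MYL1: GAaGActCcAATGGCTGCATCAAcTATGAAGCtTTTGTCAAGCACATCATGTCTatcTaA

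MYL4: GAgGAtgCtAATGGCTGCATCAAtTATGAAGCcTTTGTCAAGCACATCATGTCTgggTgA

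The second pair is that of the adult fast heavy chains. The MYH1 probe A_69_P001364 and the MYH2 probe A_69_P002377 match at 46 of the 55 bases by which they overlap when slid along each other without gaps (capitals again mark shared bases). This MYH2 probe is the one MYH2 probe that gave a signal on all arrays.

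MYH1: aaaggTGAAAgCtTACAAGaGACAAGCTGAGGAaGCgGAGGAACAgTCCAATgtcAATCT

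MYH2: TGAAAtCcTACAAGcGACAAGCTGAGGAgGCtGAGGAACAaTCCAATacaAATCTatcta

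The probes of the developmental and slow heavy chains are shown because their ratios are described first below (the first 30 bases for MYH7 and MYH8). None of these 3 matched another measured member at 70% or more of the overlapping bases. The MYH3 probe matched an unmeasured MYH15 probe (A_69_P030966) at 34 of 44 bases. Among the light chains, the MYL2 probe matched an unmeasured MYL7 probe (A_69_P078211) at 39 of 53 bases. The MYH8 probe matched an unmeasured MYH1 probe (A_69_P005301) at 33 of 47 bases. That MYH1 probe itself shared 54 of 57 bases with a probe of MYH4. Cross-hybridisation between isoforms was not tested.

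MYH3: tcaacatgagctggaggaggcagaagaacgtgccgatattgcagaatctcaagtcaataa

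MYH7: cggaacgcaaattgcagcccctttggagga

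MYH8: caagtggctgaagaaatgcacaaaatgtgc

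The first question was which of these isoforms had a signal in the cells. Feature Extraction, the scanner software, marks a spot as well above background per channel, and a probe was tested when it was so marked on all 4 arrays in the red or on all 4 in the green channel. Of the 19 probes 10 were tested, for MYH2, MYH3, MYH7, MYH8, MYL1, MYL2, MYL3 and MYL4. All 10 were well above background in both channels of every array, and no gene spot was saturated. Brightness differs between probes for reasons other than transcript number, so that the signals below compare treatments at 1 probe and do not rank isoforms.

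The adult fast heavy chains were at the edge of detection. Neither of the 2 MYH1 probes was tested, and 7 of the 8 MYH2 probes were not. Over these 9 probes, 3 of 36 control spots and 3 of 36 treated spots were well above background. The 3 spots were the same in both channels: the MYH1 probe A_69_P001364 on replicate 2, the MYH2 probe A_69_P005299 on replicate 1 and the MYH2 probe A_69_P005300 on replicate 4. On replicate 2 the MYH1 probe had a mean intensity of 238 in red and 234 in green, against 66.0 to 73.3 in red and 85.2 to 107 in green on the other arrays. Of the unmeasured MYH2 probes, 6 overlap each other by at least 30 bases within chr11:51807900-51807989 and the seventh continues from there, so that they too share a target. The remaining MYH2 probe, A_69_P002377, lay just above the limit, with log2 signals of 6.80 to 6.99 in control and 7.01 to 7.29 in treated cells. No value is given for a difference in MYH1.

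**Figure D1:**
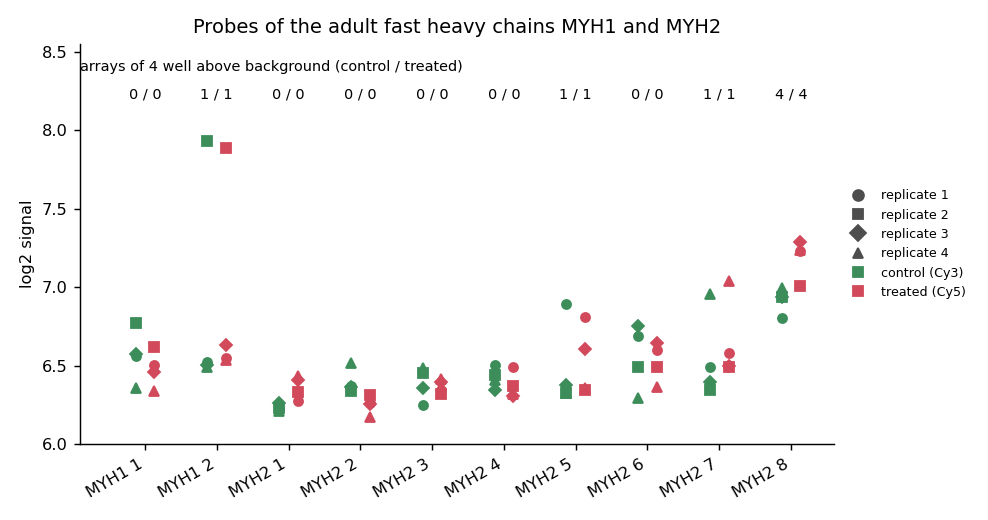
Log2 signal (y axis) of each MYH1 and MYH2 probe (x axis, in order of signal within a gene) in control (green) and treated (red) cells, 1 symbol shape per replicate, with the number of arrays on which the probe was well above background written above. The last MYH2 probe, A_69_P002377, passed this mark everywhere, and the isolated high MYH1 points are both channels of replicate 2.

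The comparison of treated with control cells was the log2 ratio of red over green, averaged over the 4 arrays and tested against 0 with limma (Benjamini-Hochberg over all 24230 tested probes). All 10 tested myosin probes, on 8 genes, rose in treated cells, with adjusted p from 0.0124 to 0.0377. Over all tested probes, 9.49% were called higher. The ratios were small, from 1.19-fold (MYH3) to 1.68-fold (MYH8), and the median over the 8 genes (brightest tested probe each) was 0.39 on the log2 scale against 0.00 over all tested probes. With the fold change of 1.3 that the study's methods ask for, 6 of the 10 probes passed, namely the 3 of MYH7 and those of MYH8, MYL1 and MYL4 (1.13% of all tested probes passed it as higher). The gene list that the study reported was taken at a lower fold change limit. With the methods' t-test in place of limma, none of the 10 passed with or without the fold change, though 9 had an unadjusted p under 0.05, and with median centring in place of loess none passed either. The log2 ratio was above 0 on all 4 arrays for each of the 10 probes. Every one of these calls was lost without replicate 1, without replicate 3 or without replicate 4 (limma, 0 of 10 called, with all 10 at an unadjusted p under 0.05), when 2, 38 and 0 of all probes were called in either direction. All 10 were called without replicate 2.

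**Figure D2:**
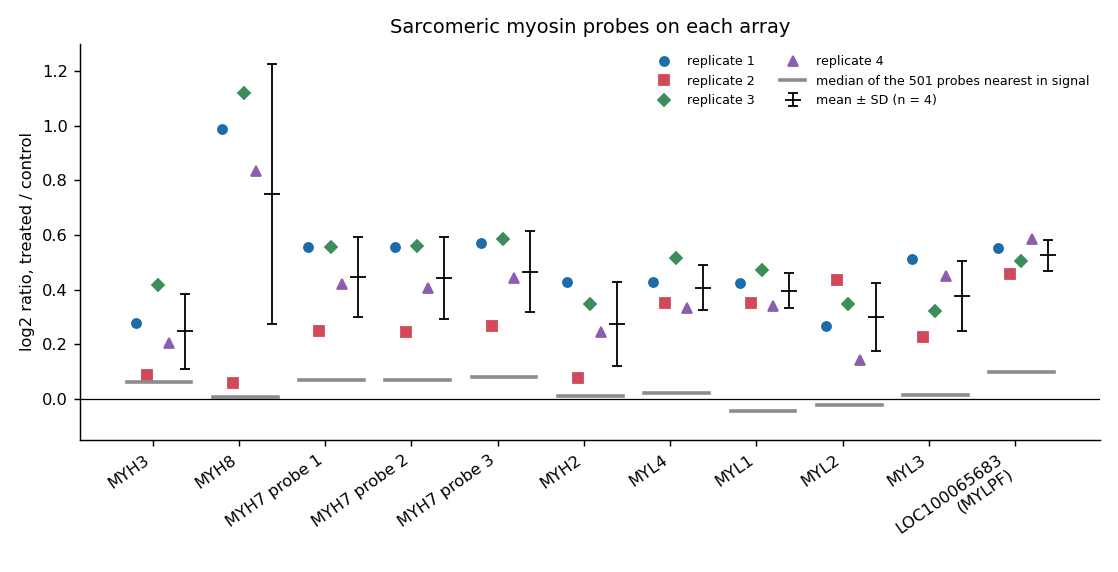
Log2 ratio of treated over control (y axis) of each measured myosin probe (x axis) on the 4 arrays, with the mean ± SD (n = 4) in black and the median of the 501 tested probes nearest in signal in grey. All points lie above 0, those of replicate 2 are the lowest for each heavy chain probe, and MYH8 has both the highest mean (0.75) and the widest spread (SD 0.48).

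Among the developmental heavy chains, MYH8 had the largest ratio of the set and the largest spread. The log2 signal of MYH8 was 9.65, 8.85, 9.57 and 9.24 in treated cells and 8.66, 8.80, 8.44 and 8.41 in control cells on replicates 1 to 4. The treated values lay above all control values, yet on replicate 2 the groups nearly met. The log2 ratios were 0.99, 0.06, 1.12 and 0.83, with a mean of 0.75 ± 0.48 (SD, n = 4; limma adjusted p = 0.0317). Without replicate 2 the mean was 0.98. Only 0.285% of the tested probes had a higher mean ratio. The call was lost with the processed signals of the scanner software (0.90, adjusted p = 0.0549) and with limma's trended, robust variance (adjusted p = 0.0650).

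MYH3 had the smallest ratio of the set. Its treated log2 signals were 16.19, 15.98, 16.16 and 16.16 and its control signals 15.91, 15.89, 15.74 and 15.95, so that the lowest treated value was just above the highest control value. The log2 ratios of 0.28, 0.09, 0.42 and 0.21 gave a mean of 0.25 ± 0.14 (SD, n = 4; limma adjusted p = 0.0377). MYH3 did not pass with the processed signals (0.16, adjusted p = 0.144), with background correction without an offset (0.24, adjusted p = 0.0528) or after a running median over signal was removed from each array (0.20, adjusted p = 0.0654).

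The slow heavy chain MYH7 rose by a similar amount at each of its overlapping probes, with mean log2 ratios of 0.45, 0.44 and 0.47. At the brightest of these (A_69_P005293), the treated log2 signals were 16.52, 16.28, 16.52 and 16.39 and the control signals 15.95, 16.02, 15.93 and 15.95. The control values stayed close to each other, and the treated value of replicate 2 was the one nearest to them. The log2 ratios were 0.57, 0.27, 0.58 and 0.44, a mean of 0.47 ± 0.15 (SD, n = 4) or 1.38-fold, with a limma adjusted p of 0.0153.

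For the fast type IIa chain, the MYH2 probe A_69_P002377 had treated log2 signals of 7.23, 7.01, 7.29 and 7.24 and control signals of 6.80, 6.94, 6.94 and 6.99. The groups did not overlap, and replicate 2 again had the smallest gap. The log2 ratios were 0.43, 0.07, 0.35 and 0.24, a mean of 0.27 ± 0.15 (SD, n = 4; limma adjusted p = 0.0348). At this dim probe the size of the ratio depended on the background correction: it was 0.80 with the processed signals, and 0.26 with no background correction, where it did not pass (adjusted p = 0.0628).

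All 6 heavy chain probes had their lowest ratio on replicate 2, and among the light chain probes this was so for MYL3. The embryonic essential chain MYL4 had treated log2 signals of 15.80, 15.68, 15.82 and 15.68 against control signals of 15.37, 15.33, 15.31 and 15.35. These groups were well apart on each array, with log2 ratios of 0.43, 0.35, 0.52 and 0.33 and a mean of 0.41 ± 0.08 (SD, n = 4; limma adjusted p = 0.0125).

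MYL1, the fast essential chain whose probe resembles that of MYL4, had treated log2 signals of 14.33, 14.15, 14.12 and 14.17 and control signals of 13.91, 13.80, 13.64 and 13.83. Its log2 ratios, 0.42, 0.35, 0.47 and 0.34, had the smallest spread of the 10 probes and a mean of 0.40 ± 0.06 (SD, n = 4; limma adjusted p = 0.0124). The ratios of MYL1 and MYL4 had the same order over the 4 arrays, highest on replicate 3 and lowest on replicate 4.

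The slow light chains were MYL3 and MYL2. MYL3 had treated log2 signals of 9.32, 9.05, 9.14 and 9.16 and control signals of 8.80, 8.82, 8.82 and 8.71, with no overlap. Its log2 ratios were 0.51, 0.23, 0.32 and 0.45, a mean of 0.38 ± 0.13 (SD, n = 4; limma adjusted p = 0.0169), which fell just below the fold change limit of 1.3. MYL2 had treated log2 signals of 14.92, 14.74, 14.99 and 14.91 and control signals of 14.66, 14.30, 14.64 and 14.77. Its groups overlapped, since the treated value of replicate 2 was below the control value of replicate 4, though treated exceeded control within each array. The log2 ratios were 0.27, 0.44, 0.35 and 0.14, a mean of 0.30 ± 0.12 (SD, n = 4; limma adjusted p = 0.0233), and MYL2 was the one member with its highest ratio on replicate 2. Treated and control signals did not overlap at the other 9 probes, as was so for 7.44% of all tested probes with the treated signal above.

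**Figure D3:**
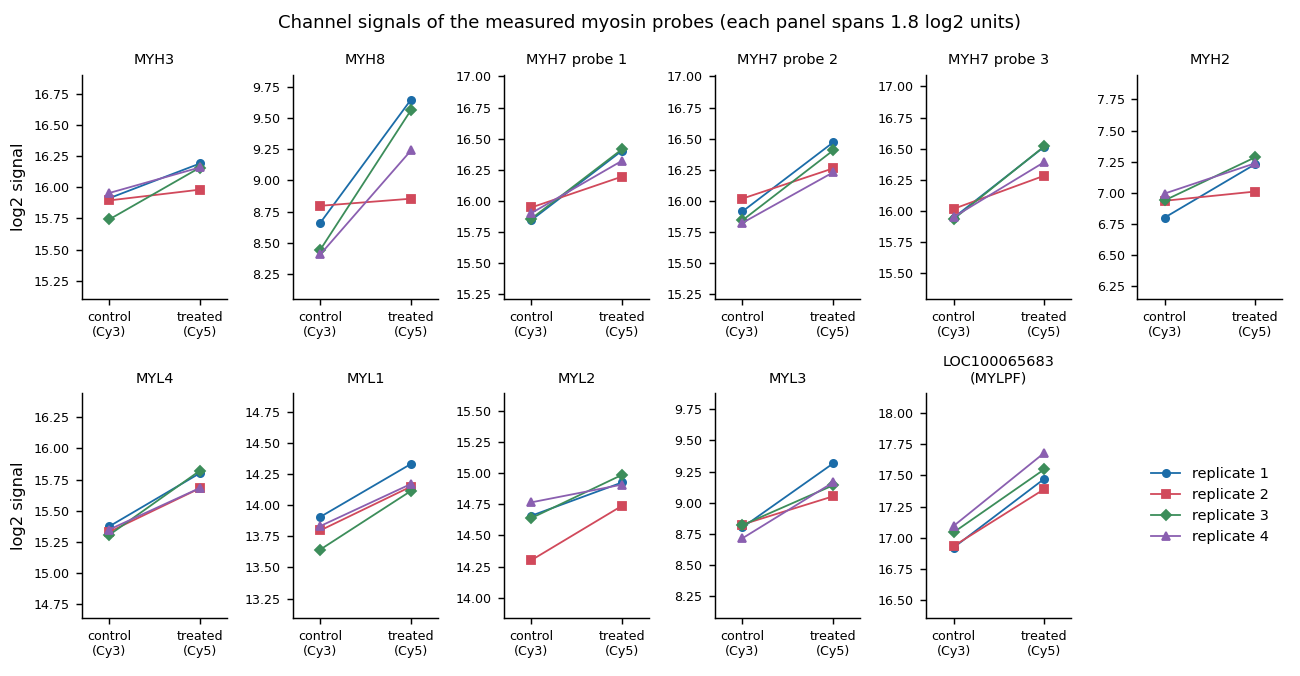
Log2 signal (y axis) in the control (Cy3) and treated (Cy5) channel of each measured myosin probe, with lines joining the channels of 1 array. Every line rises from control to treated, and the line of replicate 2 is nearly flat for MYH8 (8.80 to 8.85) while for MYL2 it rises most.

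No probe was named MYLPF, but the probe A_69_P018576, named LOC100065683 and at chr13:6652175-6652234, carries a description that gives the fast regulatory light chain. It is not counted among the members. Its treated log2 signals were 17.47, 17.39, 17.55 and 17.68 and its control signals 16.92, 16.93, 17.04 and 17.09, a clear separation on every array. The log2 ratios were 0.55, 0.46, 0.51 and 0.59, a mean of 0.53 ± 0.06 (SD, n = 4; limma adjusted p = 0.00632). This call, too, was lost without replicate 1 (adjusted p = 0.0761) or replicate 4 (0.0603), and was kept without replicate 3 (0.0446). It was also lost with median centring (limma adjusted p = 0.264) and with the methods' t-test (adjusted p = 0.0634). With the processed signals the mean log2 ratio was 0.33 (limma adjusted p = 0.0265).

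Log2 ratios drifted upwards among the brightest probes, where MYH3, MYH7 and the LOC100065683 probe lie, while MYL4 was somewhat dimmer (15.54). Of the 405 tested probes with a mean log2 signal over 16, 148 were called higher. Each member was therefore set beside the 501 tested probes nearest to it in signal. The median log2 ratio of these neighbours was 0.06 for MYH3, 0.08 for the brightest MYH7 probe, 0.02 for MYL4 and 0.10 for the LOC100065683 probe. It lay between -0.05 and 0.01 for MYL1, MYL2, MYL3, MYH2 and MYH8. The share of neighbours called higher was 19.0% around MYH3, 23.4% around the brightest MYH7 probe and 31.3% around the LOC100065683 probe. It was 12.2% around MYL4 and 3.79% around MYL2. As only 405 probes exceeded a signal of 16, the 501 neighbours of the LOC100065683 probe (17.26) include dimmer ones. Their values need not show the full drift at its own signal. The 10 members exceeded the median of their neighbours by 0.19 (MYH3) to 0.74 (MYH8). With a running median over signal removed from each array, 9 of the 10 probes remained past the threshold, all but MYH3.

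**Figure D4:**
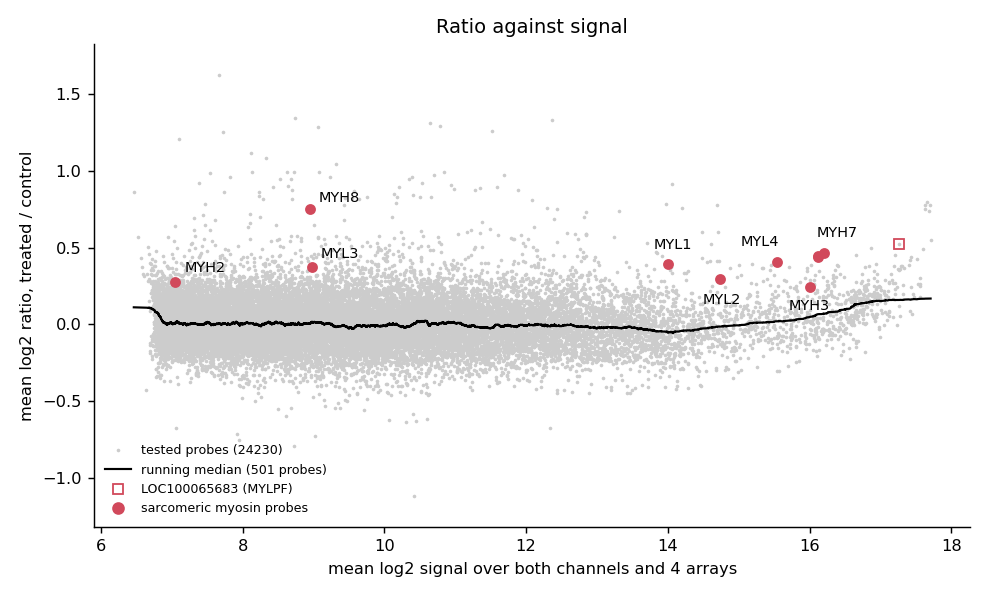
Mean log2 ratio of treated over control (y axis) against mean log2 signal (x axis) for all tested probes (grey), with the running median over 501 probes (black), the sarcomeric myosin probes (red) and the LOC100065683 probe (open square). The running median rises above 0 at the bright end, and each myosin probe lies above it.

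The isoform classes were then compared with each other, since treated cells could differ in the kind as well as the amount of myosin transcript. Each class was the mean log2 ratio of its genes on an array, and 5 contrasts were tested with an exact two-sided sign-flip permutation test over the 4 arrays, which cannot go below p = 0.125. None could therefore pass, and the values are given as they are. The mean of the developmental heavy chains MYH3 and MYH8 exceeded MYH2, the only measured adult fast chain, by 0.20, 0.42 and 0.28 on replicates 1, 3 and 4, with a mean of 0.22 ± 0.18 (SD, n = 4; exact p = 0.25, adjusted 0.312). Replicate 2 had a difference just under 0. The excess came from MYH8 (0.75), while MYH3 (0.25) had a slightly lower mean ratio than MYH2 (0.27). The slow chain MYH7 exceeded MYH2 on all 4 arrays, by 0.19 ± 0.04 (SD, n = 4; exact p = 0.125, adjusted 0.208). Both of these differences turned negative with the processed signals, to -0.27 and -0.40, where the ratio of the dim MYH2 probe was larger.

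The mean ratio of the slow light chains MYL2 and MYL3 was below that of the fast light chain MYL1 on all 4 arrays, with a mean difference of -0.06 ± 0.05 (SD, n = 4; exact p = 0.125, adjusted 0.208). The genes singly did not keep this order, as MYL3 lay above MYL1 on replicates 1 and 4 and MYL2 lay above it on replicate 2. With the LOC100065683 probe counted as MYLPF, chosen after the values were seen, the difference was -0.12. Heavy chains differed from light chains by 0.16, -0.22, 0.20 and 0.12, a mean of 0.06 ± 0.19 (SD, n = 4; exact p = 0.625). This difference was smaller than its spread, and on replicate 2 the light chains had the higher ratio. The 8 sarcomeric myosins exceeded the 7 measured non-muscle and smooth muscle myosins by 0.38, 0.18, 0.33 and 0.22, a mean of 0.28 ± 0.09 (SD, n = 4; exact p = 0.125, adjusted 0.208), with means of 0.40 and 0.13.

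The other myosins were not measured or had a mean log2 ratio below the sarcomeric median of 0.39. Of 8 further sarcomeric myosin genes only 2 were tested, each through a probe named by its description. MYH6, the cardiac alpha heavy chain, rose with a mean log2 ratio of 0.25 ± 0.15 (SD, n = 4; limma adjusted p = 0.0394), and its ratios of 0.33, 0.06, 0.39 and 0.21 were again lowest on replicate 2. MYH7B had a mean of 0.12 ± 0.12 (adjusted p = 0.165). MYH4, MYH13, MYH15, MYL5, MYL7 and MYL10 were not tested. Of 7 tested genes listed as non-muscle and smooth muscle myosins, 1 rose at its brightest probe (9.49% of all tested probes were called higher). Their median was 0.21. The riser was the light chain MYL6B, with 0.22 ± 0.02 (SD, n = 4; adjusted p = 0.0194). Its probe matched that of MYL3 at 32 of 45 overlapping bases. Whether genes of this list are also expressed in muscle fibres was not tested, which limits the class contrast too. MYL6, a close relative of MYL6B in non-muscle cells, had 0.20 ± 0.12 (adjusted p = 0.0507) at its brightest probe. All 5 of its tested probes had a mean above 0, and 1 was called higher. The regulatory light chain MYL9 had 0.29 ± 0.31 (adjusted p = 0.110). The means of MYL9 and MYH14 (0.28 ± 0.37) exceeded that of the member MYH3 (0.25). MYH9 (-0.27 ± 0.33, adjusted p = 0.147) and MYL12A (-0.06 ± 0.09) had means below 0.

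Of 10 tested genes listed as thick filament and M-band partners 5 rose and none fell, with a median of 0.26. The list is not confined to structural proteins. Its risers included TRIM54 (0.29 ± 0.21, limma adjusted p = 0.0484) and TRIM63 (0.25 ± 0.17, limma adjusted p = 0.0497). Titin (TTN) did not pass (0.40 ± 0.34, limma adjusted p = 0.0616), and MYOM3 (0.04) and TRIM55 (0.01) were near 0. MYBPH, a myosin-binding protein, had 0.56 ± 0.07 (SD, n = 4; limma adjusted p = 0.00632), MYOM2, which cross-links myosin in the M-band, had 0.49 ± 0.13 (adjusted p = 0.0129) and MYOM1 had 0.27 ± 0.14 (adjusted p = 0.0329). Of 17 tested thin filament genes 7 rose and none fell, with a median of 0.22. The cardiac actin ACTC1, which early myotubes also express, had 0.44 ± 0.07 (adjusted p = 0.0114), the fast troponin T gene TNNT3 had 0.44 ± 0.10 (adjusted p = 0.0125) and the fast troponin I gene TNNI2 had 0.56 ± 0.19 (adjusted p = 0.0150). The slow troponin genes TNNT1 (0.44 ± 0.14, adjusted p = 0.0158) and TNNI1 (0.33 ± 0.07, adjusted p = 0.0153) rose too, as did TMOD4 (0.36) and TNNC2 (0.34). ACTA1 (0.23), NEB (0.22) and TNNC1 (0.09) were among those that did not pass. TPM3 (-0.19), TPM1 (-0.03) and LMOD3 (-0.03) had means below 0 at their brightest probes. The shares called higher in both lists are larger than the 9.49% of all probes, but they count 1 probe per gene, the brightest tested. Calls were more frequent among bright probes (148 of 405 over a mean log2 signal of 16), where ACTC1 lies (17.43). No test of the lists was made.

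Among the genes that fold myosin or regulate the phosphorylation of its light chains, 7 were tested with a median of 0.06. By limma 1 of them passed, with a fall (17.1% of all tested probes passed in either direction), the chaperone HSP90AA1, with -0.28 ± 0.03 (SD, n = 4; limma adjusted p = 0.0153). The myosin chaperone UNC45B had 0.22 ± 0.18 (adjusted p = 0.0759) and the myosin phosphatase subunit PPP1R12A had 0.10 ± 0.05 (adjusted p = 0.116). Of 14 tested myogenic regulators 6 rose and none fell, with a median of 0.13, where 9.49% of all tested probes were called higher. The risers included MYOG, a transcription factor of terminal muscle differentiation, with 0.33 ± 0.13 (adjusted p = 0.0212), MEF2A with 0.26 ± 0.10 (adjusted p = 0.0233) and MEF2C with 0.20 ± 0.05 (adjusted p = 0.0274). NFATC1 (-0.14), SIX4 (-0.04) and NFIX (-0.003) had means below 0 and did not pass.

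**Figure D5:**
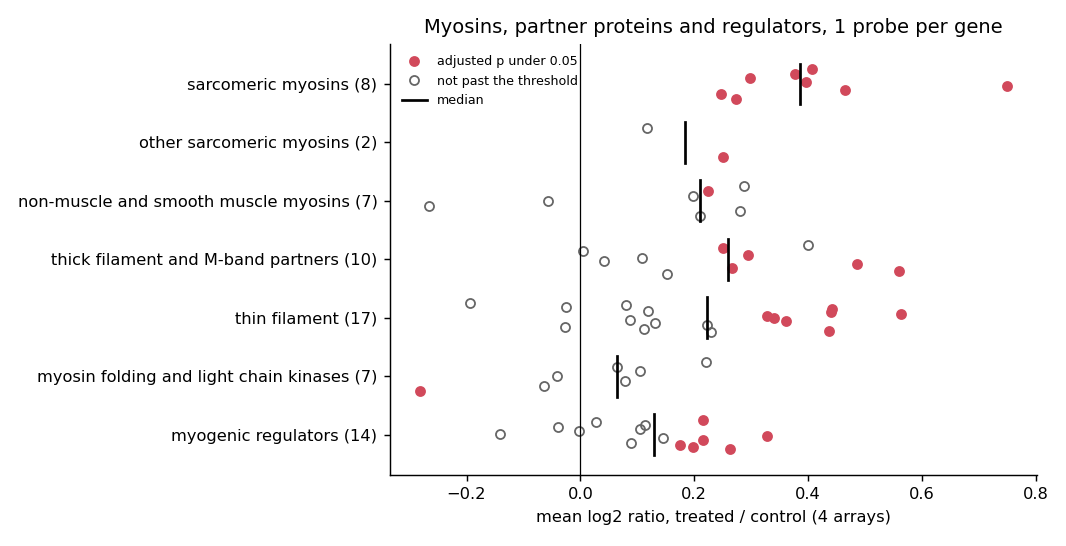
Mean log2 ratio of treated over control (x axis) of each tested gene, 1 probe per gene, for the sarcomeric myosins and 6 related gene lists (y axis, number of genes in parentheses). Filled points passed an adjusted p of 0.05, open points did not, and bars mark medians, which run from 0.06 (folding and kinases) to 0.39 (sarcomeric myosins).

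Markers of the labelled cell type and of other cell types were then examined. Their ratios compare treatments and do not identify cells. Over all tested probes, 9.49% were called higher and 17.1% passed in either direction. All 9 markers of differentiating muscle were measured, and 4 rose. These were MYOG, the cadherin CDH15 (0.28 ± 0.10), the creatine kinase CKM (0.33 ± 0.21) and MYH3, itself a member of the set. MYMK, ACTA1, MYOD1, DES and CHRNA1 did not pass. Their means ran from 0.02 (DES and CHRNA1) to 0.23 (ACTA1), with limma adjusted p from 0.0562 to 0.854. Of the satellite cell markers, PAX7 and CXCR4 were not tested, MYF5 had 0.09 ± 0.09 (adjusted p = 0.224), and CDH15 and NCAM1 (0.16 ± 0.05) rose. None of 5 endothelial markers and none of the 4 adipocyte markers on the array was tested. Of 7 tested fibroblast markers 1 fell, the proteoglycan LUM (-0.43 ± 0.10), and 1 rose, THY1 (0.28 ± 0.14), beside 17.1% of all tested probes passing. The collagen gene COL1A2 had 0.30 ± 0.30 (adjusted p = 0.0914). The summed log2 signal of the fibroblast list was 18.33 to 18.64 in control and 18.60 to 18.85 in treated cells. Such a sum follows the brightest probes, here those of COL1A2 (17.56) and COL3A1 (16.93), and does not measure cell content. Of the tested probes, 4 of 9 for COL1A2 and 4 of 7 for COL3A1 had a mean ratio above 0. None of 3 tested smooth muscle markers passed, with 0.14 ± 0.26 for ACTA2, -0.08 ± 0.29 for CNN1 and -0.03 ± 0.19 for TAGLN, and their summed log2 signal was 15.11 to 15.25 in control and 14.91 to 15.35 in treated cells. MYH11, the defining myosin of smooth muscle, was not tested.

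Of 4 immune markers 3 were tested. PTPRC, a leukocyte phosphatase, had 0.53 ± 0.05 (SD, n = 4; limma adjusted p = 0.00632) at its brightest probe, CD14 fell (-0.17 ± 0.06) and CD68 had 0.00 ± 0.06 (adjusted p = 0.942). The probes of PTPRC disagreed: 6 of 15 rose, at mean log2 signals of 10.52 to 13.71, and the other 9 had signals of 6.32 to 6.84, of which 1 was tested. The summed log2 signal of the immune list was 13.81 to 13.97 in control and 14.17 to 14.33 in treated cells. This sum mostly follows the brightest PTPRC probe. The part of these other cells in the myosin ratios was not tested, and in bulk RNA more muscle cells and more myosin RNA per cell cannot be told apart.

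GAPDH, the reference gene of the study, had a mean log2 ratio of 0.24 ± 0.08 (SD, n = 4; limma adjusted p = 0.0233) at its brightest probe, close to that of MYH3. Its 13 tested probes ran from -0.10 to 0.27, and 4 of them were called higher. The difference between the myosins and GAPDH was not tested.

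The genes whose ratios were nearest to the median myosin profile (0.43, 0.25, 0.44 and 0.34 on replicates 1 to 4) were sought by Euclidean distance among 8532 other gene symbols, at the brightest tested probe of each. The nearest were TBC1D5 (distance 0.08), ZNF362 (0.08), CAPZB (0.08), CCR10 (0.09) and CAPNS1 (0.09). CAPZB encodes the beta subunit of the protein that caps actin filaments at the Z-line, and CAPNS1 the small subunit of calpain. Their mean log2 ratios ran from 0.36 (CAPNS1) to 0.37 (CAPZB), and all but CAPNS1 had their lowest value on replicate 2. The distance is a description over 4 arrays.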

How the data were processed

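The authors scanned 4 two-colour Agilent horse arrays with Feature Extraction 10.10.1.1, per the file headers. The deposited files hold red and green intensities per spot, both as means with local background and as processed intensities, and the deposited log10 ratio of processed red over green, which is also the value of the series matrix. Mean intensities were corrected with normexp (offset 50) and normalised by loess within arrays in limma 3.58.1 (R 4.3.3), with control spots at weight 0. Spots marked as outliers (7 to 16 gene spots per array) were left out and spots of a probe averaged. Between 54.9% and 61.4% of gene spots were well above background per channel, and 24230 probes (55.6%) were tested. Channel signals are log2 values after loess and Aquantile. The log2 ratio was tested against 0, with treated and control RNA paired by their shared array, Benjamini-Hochberg adjustment and a threshold of 0.05. The number of arrays limits the precision. On simulated data with known changes in 200 probes, 36.0% of changes of 0.3 and 84.0% of changes of 0.6 (log2) were recovered at 24230 probes. The simulation took the observed SD of each probe as true and held far fewer changes than the 4137 calls of the real data. As the adjustment depends on the number of changes, these rates need not hold for the real data. Probes of list genes were named by gene name or description, the brightest tested per gene. By rule, at most 3 genes with the smallest p were named from each other list, or all where 4 or fewer were tested. The 5 nearest genes and GAPDH were named besides. Further genes of some lists were added after the values were seen. Members and lists were chosen with earlier results of these data known. Probe pairs were compared without gaps over at least 30 bases (Python 3.11.15, numpy 2.4.6, scipy 1.17.1). Alternatives were other signals, corrections, centring, filters, variance models, the methods' t-test, unpaired channels and leaving out each array. Protein and promoter sequences were not analysed here.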

Additional observations from a re-analysis of the deposited data

Results flagged for a closer look

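Dixon's test was run on 52 sets of 4 values: the measured probes, the genes named by rule and the 5 contrasts. About 1 in 20 would be marked by chance. In 1 set a sample lay far from the others. It was the immune marker CD14, whose log2 ratio was -0.26 on replicate 1 and -0.14, -0.14 and -0.15 on replicates 2 to 4 (the gap was 0.852 of the range). No myosin probe was marked, and the low MYH8 ratio of replicate 2 did not pass the limit.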

How the results depend on the processing

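The direction of each measured myosin probe held under all 16 alternatives. The number of the 10 member probes past the threshold fell to 0 with median centring in place of loess and to 0 with the methods' t-test, where all 24230 probes gave 12 and 5 calls. At an unadjusted p under 0.05 the counts were 10 and 9. Leaving out 1 array gave 0 to 10 (0 without replicate 1, 3 or 4). With the fold change of 1.3 the count of 6 likewise fell to 0 with median centring and to 0 with the methods' t-test, and was 0 to 7 with 1 array left out. Under the other alternatives over the same 10 probes it was 7 to 10 without and 5 to 8 with the fold change. With the LOC100065683 probe added it was 11 and 7 of 11, and with 1 probe per gene 8 and 4 of 8, both chosen after seeing the data. The 7 came from the fit with no replicate block, which treats the channels of an array as unpaired and lost MYH2, MYH3 and MYL2. With no replicate block the class differences were unchanged in size. For MYH7 minus MYH2 (0.19) and sarcomeric minus other myosins (0.28) the exact permutation p became 0.0286. That is the smallest p possible with 4 against 4 unpaired values. It ignores the pairing by array and was not adjusted over the 5 contrasts. The developmental and slow minus fast heavy chain differences reversed to -0.27 and -0.40 with the processed signals and to -0.27 and -0.40 with the series matrix, which holds the same ratios. The other class differences kept their sign. With 1 array left out they ran from 0.16 to 0.30 (developmental minus fast heavy chains), 0.18 to 0.21 (slow minus fast heavy chains), -0.07 to -0.03 (slow minus fast light chains), 0.02 to 0.16 (heavy minus light chains) and 0.24 to 0.31 (sarcomeric minus other myosins). The causes were not tested. Dim probes (MYH1 and most of MYH2) set the limit of what could be measured.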
